A study of Oryza sativa with 36 samples.

Results

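Auxin reaches its target genes through a short chain of proteins, and 4 gene names of that chain, IAA6, IAA23, IAA25 and ARF10, were followed in leaves of rice seedlings under chilling and recovery. The members are the probe sets whose gene symbol or synonym is one of these names. They number 7 of the 57258 probe sets on the array, and they belong to 5 of the 17905 genes with a probe set of their own. The name ARF10 is carried by 2 genes, LOC4336419 and LOC4341882. The second is also known as ARF18 and is called ARF18 here. IAA23 (LOC4341432) has 3 probe sets. IAA6 (LOC4326541), IAA25 (LOC4344471) and both ARF genes have 1 each.

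The 36 Affymetrix rice genome arrays form 12 groups of 3 biological replicates. LTH (Li-Jiang-Xin-Tuan-Hei-Gu), a chilling-tolerant japonica genotype, and IR29, a chilling-sensitive indica cultivar, were grown side by side in soil at 29 °C until the seedlings were 8 to 10 days old. Each genotype has a control group, groups chilled at 4 °C during 2, 8, 24 or 48 h, and plants that recovered at 29 °C during 24 h once 48 h of chilling had passed. Neither genotype carries a transgene or an added agent. Only 1 control group is labelled for each genotype, and effects of the hour of the day and of chilling cannot be told apart. The array was designed mostly on japonica sequence, so between the genotypes a difference in level and a mismatch under the probes cannot be told apart either.

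Auxin binds a receptor of the TIR1/AFB family together with an Aux/IAA protein, and the Aux/IAA protein is then degraded. Aux/IAA proteins are repressors that sit on auxin response factors (ARFs), the DNA-binding proteins of the pathway, and recruit co-repressors of the TOPLESS family. Many Aux/IAA genes are themselves early targets of auxin, so the pathway makes its own brake. IAA6, IAA23 and IAA25 encode such repressors, while ARF10 and ARF18 encode response factors of the kind that microRNAs of the miR160 family keep low. No sequence of these genes is shown here.

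The genes were put forward with results of these arrays known, so their levels and differences in the groups are a description without a test. Values are linear array intensities, and a log2 difference of 1 is a doubling. Differences carry the standard error (SE) of a linear model of the 12 group means. Levels of different probe sets were never set against each other, because intensity depends on the probe as well as on the transcript. In whole leaves, fewer cells of a type and less RNA per cell cannot be told apart.

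Array medians lay between 9.81 and 11.16, and the correlation of log2 intensity between arrays of a group between 0.913 and 0.977. The leaf markers bore out the tissue: the summed intensity of 5 of them (CAB2R, GLO1, RCA, RBCS and RBCS1) was 17136 to 17916 in LTH controls and 17116 to 19195 in IR29 controls. RBCS1 alone stayed under 10 in every group. After recovery the sum was 8054 to 10468 in IR29 and 18622 to 19946 in LTH.

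IAA6, a repressor gene that has been linked to drought tolerance and tiller outgrowth in rice, was high at every chilling time in both genotypes. Its 3 LTH control arrays read 191, 182 and 188, and the 2 h arrays read 1072, 943 and 936. The LTH arrays then read 973, 1147 and 786 at 8 h, 837, 809 and 1253 at 24 h, and 1190 (1189.92), 973 and 1242 at 48 h. The level was thus reached by the first sampling, and the 4 chilled LTH groups overlapped each other.

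In IR29 the control arrays of IAA6 read 179, 176 and 194, and those at 2 h read 959, 884 and 1000.2. The 8 h arrays read 594, 512 and 666, below all LTH arrays of that time. At 24 h the IR29 arrays read 536, 915 and 1109, and at 48 h 757, 1374 and 929. No chilled array of either genotype came near a control array. Recovery arrays read 426, 359 and 494 in LTH and 528, 477 and 357 in IR29, all above the controls. They lay below every chilled array in LTH, and in IR29 they overlapped the 8 h arrays alone.

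As log2 differences from the control at 2, 8, 24 and 48 h, IAA6 stood at 2.39, 2.36, 2.34 and 2.59 in LTH. The corresponding IR29 values were 2.37, 1.69, 2.16 and 2.44 (SE 0.22 each). After recovery it was still 1.18 ± 0.22 higher in LTH and 1.30 ± 0.22 higher in IR29. The controls of the genotypes differed by 0.03 ± 0.22. LTH minus IR29 in the response was 0.67 ± 0.31 at 8 h and between -0.12 and 0.18 at the other times.

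**Figure D1:**
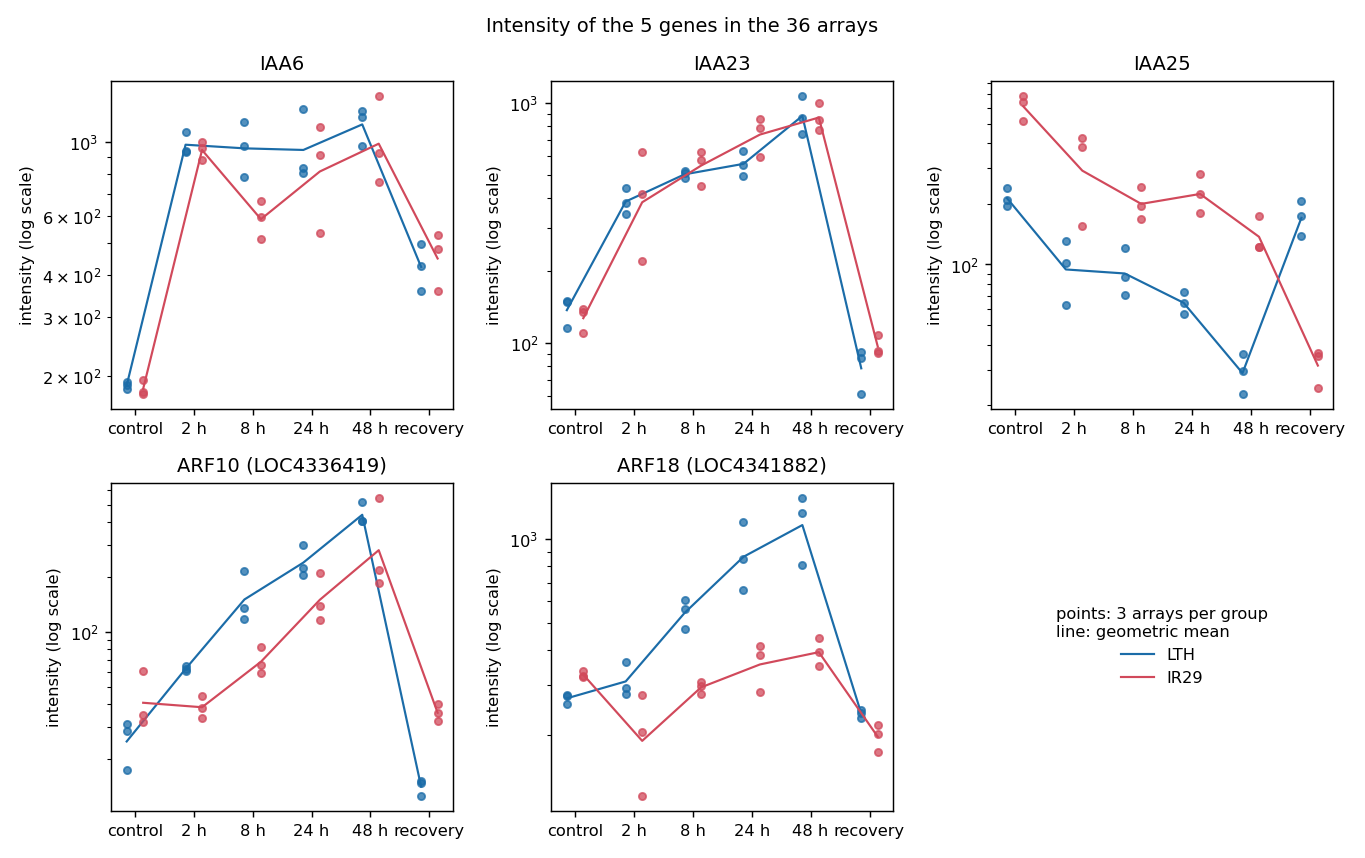
Intensity (log axis) of the 5 genes by group, control, 4 °C for 2 to 48 h, and recovery, with 1 point per array (3 per group) and lines through the geometric means, LTH in blue and IR29 in red. IAA6 and IAA23 were high under chilling in both genotypes, IAA25 was low, and ARF18 climbed in LTH to a mean of 1155 at 48 h against 396 in IR29.

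IAA23, which in rice roots is needed to maintain the quiescent centre, climbed under chilling, in steps at its brightest probe set. At its brightest probe set the LTH controls read 149, 150 (149.76) and 115, and the IR29 controls 110 (109.67), 138 and 135. After 2 h the LTH arrays read 442, 344 and 384 and the IR29 arrays 623, 419 and 219. The third IR29 array was far below the first, yet still above every control.

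At 48 h of chilling IAA23 read 867, 1066 and 739 in LTH and 844, 1001 and 771 in IR29. The genotypes overlapped at 48 h, as they did at 2, 8 and 24 h, and their log2 differences from control were 2.68 ± 0.24 and 2.77 ± 0.24. At 2, 8 and 24 h it had reached 1.5, 1.88 and 2.02 in LTH, and 1.6, 2.11 and 2.54 in IR29.

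Unlike IAA6, IAA23 dropped below its controls on rewarming. The recovery arrays read 61.3, 86.5 and 91.5 in LTH and 108, 91.2 and 92.5 in IR29, all lower than the control arrays of their genotype. The log2 difference between recovery and control was -0.80 ± 0.24 in LTH and -0.39 ± 0.24 in IR29. Between 48 h of chilling and recovery the level fell by 3.49 ± 0.24 in LTH and by 3.16 ± 0.24 in IR29 on the log2 scale.

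The brightest of the 3 IAA23 probe sets has the suffix x_at, which the manufacturer gives where probes can also bind other transcripts. The second probe set read 22.9 to 27.8 in LTH controls, 129 to 211 at 48 h and 16.1 to 18.2 after recovery. In IR29 it read 20.1 to 29.7, 177 to 246 and 21.1 to 28.2. The direction under chilling was the same, and the IR29 recovery arrays overlapped their controls here. The steps differed. At 2, 8 and 24 h the means were 92.7, 78.0 and 87.0 in LTH, without a climb. In IR29 they were 96.1, 94.3 and 133.

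The third probe set was close to the floor of 1 in the controls, at 1 to 4.29 in LTH and 1.34 to 3.37 in IR29. It read 75.6 to 91.3 in LTH and 78.6 to 129 in IR29 at 48 h, a log2 difference of 5.09 ± 0.46 and 5.37 ± 0.46. After recovery it read 2.00 to 2.28 in LTH and 4.05 to 6.75 in IR29. There the IR29 arrays lay above their controls, whereas at the brightest probe set they lay below, so the sign of the IAA23 recovery difference in IR29 depends on the probe set.

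**Figure D2:**
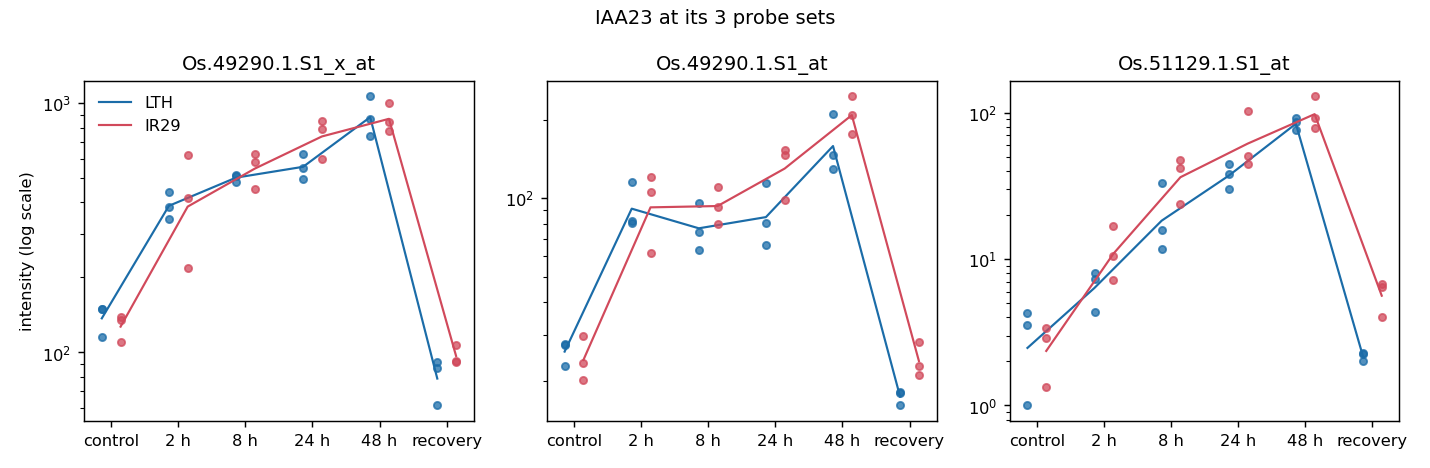
Intensity (log axis) of IAA23 at its 3 probe sets by group, with 1 point per array and lines through geometric means, LTH in blue and IR29 in red. All climb under chilling and drop on rewarming, and the one in the right panel starts between 1 and 4.29 in LTH controls.

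IAA25 went the other way from IAA6 and IAA23. It was low under chilling in both genotypes, and on rewarming the genotypes separated. The LTH control arrays read 195, 209 and 240 (239.56) and the IR29 controls 639, 513 and 687. In the controls IAA25 was thus lower in LTH, by 1.51 ± 0.30 on the log2 scale, with no overlap.

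At 2 h IAA25 read 131, 102 and 63.0 in LTH and 382, 424 and 155 in IR29. At 48 h it read 22.7, 35.8 and 29.7 in LTH and 122, 173 and 122 in IR29. Every chilled array was below the controls of its genotype, at 8 and 24 h too, where LTH arrays lay between 56.7 and 120 (120.05) and IR29 arrays between 168 and 280 (280.07). Over the 4 times the log2 difference from control was -1.18, -1.24, -1.73 and -2.89 for LTH. For IR29 it was -1.06, -1.61, -1.44 and -2.15 (SE 0.30).

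After 24 h back at 29 °C the LTH arrays of IAA25 read 207, 138 and 173, overlapping the controls, while the IR29 arrays read 24.4, 35.2 and 36.3. In IR29 the recovery level was lower than at any chilling time. Between 48 h and recovery IAA25 increased by 2.56 ± 0.30 in LTH and dropped by 2.12 ± 0.30 in IR29 on the log2 scale. Against the control, recovery stood at -0.33 ± 0.30 in LTH and -4.27 ± 0.30 in IR29, a difference between the responses of 3.95 ± 0.42.

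ARF10 (LOC4336419) was higher at every chilling time in LTH, and in IR29 it stood clear of its controls from 24 h. Its LTH control arrays read 31.2, 28.5 and 17.5, those at 2 h 64.5, 60.9 and 62.3, and those at 48 h 516, 408 and 404. The 8 h arrays lay between 117 and 216 and the 24 h arrays between 205 and 300 (299.72). All 4 chilled LTH groups stood clear of the control, with log2 differences of 1.32, 2.59, 3.26 and 4.14 (SE 0.31).

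In IR29 the control arrays of ARF10 read 34.7, 60.7 and 32.1. At 2 h they read 37.9, 33.7 and 44.6 and at 8 h 82.2, 59.7 and 65.4, both overlapping the control. At 24 h they read 116, 211 and 138 and at 48 h 219, 546 and 185. The log2 differences were -0.08, 0.75, 1.88 and 2.78 (SE 0.31), and the last is 2.3 without replicate 2 of the IR29 48 h group.

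The response of ARF10 was larger in LTH than in IR29 at each chilling time, by 1.41, 1.84, 1.38 and 1.35 on the log2 scale (SE 0.44). Part of this lies in the controls, which were lower in LTH by 0.71 ± 0.31. At the same chilling time the arrays of the genotypes overlapped at 24 and 48 h and not at 2 and 8 h. After recovery ARF10 read 15.1, 14.9 and 12.5 in LTH, below its controls, and 32.2, 35.95 and 40.03 in IR29, within its controls.

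ARF18 (LOC4341882), the other gene called ARF10, climbed under chilling in LTH, while in IR29 it was below its controls at 2 and 8 h and near them after that. In LTH its control arrays read 277, 274 and 258, and it climbed over 362, 295 and 279 at 2 h and 561, 607 and 476 at 8 h to 1157, 849 and 661 at 24 h and 1410 (1410.5), 1245 and 811 at 48 h. No chilled LTH array fell among the control arrays, though the lowest 2 h array (278.9) barely cleared the highest control (277.38). The log2 differences were 0.20, 1.02, 1.68 and 2.06 (SE 0.22).

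In IR29 the ARF18 controls read 322, 323 and 338. The 2 h arrays read 278, 204 and 121, and the 8 h arrays 308, 298 and 281, all below the controls. The 24 h arrays read 385, 414 and 284, on both sides of the controls, and the 48 h arrays read 394, 443 and 352, just above them. The log2 differences were -0.79, -0.15, 0.12 and 0.27 (SE 0.22).

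Every chilled LTH array of ARF18 was above every IR29 array of its time, by a hair at 2 h (278.9 against 278) and widely from 8 h on. The response in LTH exceeded that in IR29 by 0.99, 1.17, 1.56 and 1.79 over the 4 times (SE 0.31). In the controls ARF18 was lower in LTH, by 0.28 ± 0.22. After recovery the arrays read 229, 245 and 239 in LTH and 202, 217 and 174 in IR29, in both genotypes below the controls. The recovery differences were -0.18 ± 0.22 and -0.74 ± 0.22.

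**Figure D3:**
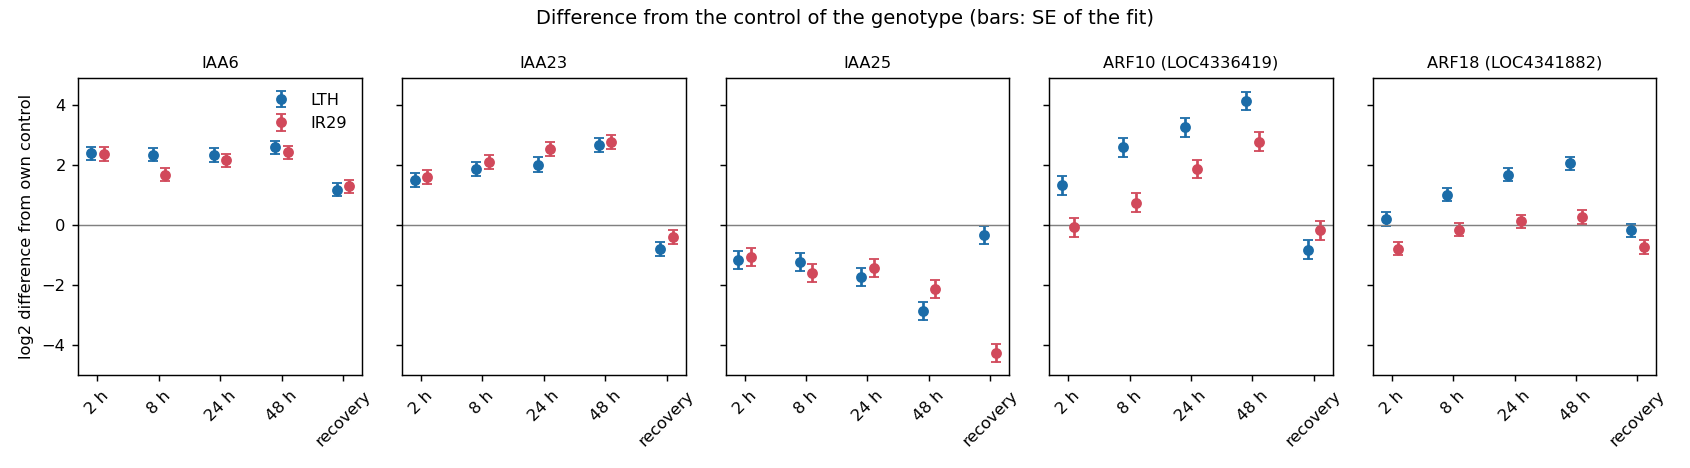
Log2 difference from the control of the genotype for the 5 genes at 2, 8, 24 and 48 h and after recovery, LTH in blue and IR29 in red, with bars for the SE of the fit. ARF10 and ARF18 lie higher in LTH at the 4 chilling times, and IAA25 after recovery stands at -0.33 in LTH and -4.27 in IR29.

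The call rule for a gene was a limma p, adjusted over all probe sets by the method of Benjamini and Hochberg, under 0.05 and a log2 difference of at least 1. The counts of the 5 genes past this rule are only a description, each beside the percentage of all 17905 genes past it, at 1 probe set per gene. In LTH 4 were past it after 2 h (22.4% of all genes), 5 after 8 h (21.7%), 5 after 24 h (31.4%) and 5 after 48 h (37.5%). In IR29 the numbers were 3 after 2 h (26.1%), 3 after 8 h (22.7%), 4 after 24 h (28.9%) and 4 after 48 h (34.4%).

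After recovery 1 of the 5 genes, IAA6, was past the rule in LTH (4.6%), and 2, IAA6 and IAA25, in IR29 (30.5%). Between the controls only IAA25 was (8.4%). For LTH minus IR29 in the response none was past it at 2 h (2.34%), ARF10 and ARF18 were after 8 h (4.46%), ARF18 after 24 h (9.13%), ARF10 and ARF18 after 48 h (12.9%) and IAA25 in recovery (15.2%). From 48 h to recovery all 5 were past it in LTH (39.4%), IAA25 going up (23.5% of all genes did) and the other 4 down (15.9%). In IR29 all 5 were as well (44.8%), each going down (20.3%, against 24.5% going up).

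Ordered by mean log2 intensity over the 12 groups, LTH at 48 h came first for IAA6, ARF10, ARF18 and the brightest IAA23 probe set, overlapping the next group in each. At the other IAA23 probe sets IR29 at 48 h came first, also with overlap. The top groups of IAA6 ran into each other: each of the first 9 overlapped the next in the order, and the first clear step was between recovery and the controls. For ARF18 the LTH groups at 48 and 24 h overlapped, and clear steps set them above LTH at 8 h and that group above IR29 at 48 h. For IAA25 the order opened with the IR29 control and ended with IR29 recovery and LTH at 48 h, which overlapped.

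Across the 12 group means of log2 intensity, given as a description over groups that share their normalization, ARF10 ran closest to IAA23 (Pearson r = 0.882) and to ARF18 (r = 0.835). IAA6 ran with IAA23 at r = 0.789 and with ARF18 at r = 0.45. IAA25 had a negative r with the other 4 genes, between -0.492 for IAA6 and -0.204 for IAA23. The IAA23 probe sets ran together at r between 0.911 and 0.98.

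Of 11028 genes with a range of at least 1 on the log2 scale and a highest group mean of at least 100, 3 per member were picked by Pearson r over the 12 group means. A course like that of the member is thus built into the choice. Closest to IAA6 were LOC4334271 (r = 0.975), Dhn1 (r = 0.972), which encodes a dehydrin, a protein that protects cells short of water, and LOC4325550 (r = 0.962). Dhn1 averaged 639 in LTH controls, 2712 at 2 h and 1540 (1539.6) after recovery, and 600.03, 2474 and 1223 in IR29. Its course had the early plateau and the partial return of IAA6.

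Closest to IAA23 were LOC4327781 and EXO-1 (r = 0.987 each), the latter an exonuclease gene, and LOC4331622 (r = 0.982). EXO-1 had a mean of 14.5 in LTH controls, 209 at 48 h and 4.76 after recovery, and 9.40, 261 and 8.25 in IR29. Its recovery mean lay below the control mean in both genotypes, only slightly so in IR29. Closest to IAA25 were LOC4347585 (r = 0.973), LOC4329862 (r = 0.972) and LOC4328603 (r = 0.966). LOC4329862 had means of 529, 80.9 and 588 (587.5) in LTH at control, 48 h and recovery and of 842, 336 and 88.6 in IR29, the same parting on rewarming.

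Closest to ARF10 were LOC4348699 (r = 0.982), LOC4337973 (r = 0.977) and LOC4346686 (r = 0.969). Closest to ARF18 were LOC4334368 (r = 0.957), the protein kinase gene OsWNK4 (r = 0.956) and LOC4344334 (r = 0.954). LOC4334368 had means of 3.76 in LTH controls and 153 at 48 h against 4.44 and 21.0 in IR29. OsWNK4 had means of 227 and 493 (492.5) against 275 and 321.

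The other auxin genes on the array, 57 in lists drawn up by family, were tested. These lists too were drawn up with earlier results of these data known, so their adjusted p values are not independent of that choice. Under chilling 21 of 57 were called at 1 or more times in LTH, 14 higher and 7 lower, and 25 in IR29, 20 higher and 5 lower. Over all genes 46.2% were called in LTH and 46.5% in IR29. For LTH minus IR29 at any of the 5 times 15 of 57 were called (27.2% of all genes). The IR29 count was 16 without replicate 3 of the IR29 control. After recovery 29 of 57 were called in IR29, 3 higher and 26 lower, and 5 in LTH, 1 higher and 4 lower. Over all genes 11.8% were called higher and 18.7% lower in IR29 after recovery, and 2.34% and 2.26% in LTH. The LTH count of 5 fell to 1 without replicate 2 of the LTH control or replicate 1 of LTH recovery, to 2 without replicate 1 of the control or replicate 3 of recovery, and to 3 without replicate 3 of the control. The count of 15 was 25 without replicate 2 of LTH 24 h, and that of 21 ranged from 16 to 29.

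Aux/IAA repressors carried most of the recovery calls in IR29. Of 23 Aux/IAA genes besides the 3 members, 17 were called lower and 1, IAA20, higher in IR29 after recovery, with a median log2 change of -1.87 against 0.04 over all genes. In LTH 1, IAA31, was called lower and none higher, with a median of -0.48 against 0.05. For the difference between the responses 8 of 23 were called, each with the lower value in IR29 (10.4% of all genes were called in that direction), with a median of 1.32 against 0.00148. In LTH 7 of the 8 had a log2 change between -0.99 and -0.16, and IAA2 stood at 0.53 in LTH and -2.78 in IR29.

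IAA24 had means of 253 ± 31.5 in LTH controls and 233 ± 63.6 in IR29 controls (SD, n = 3). After recovery it stood at 151 ± 18.1 in LTH and 11.04 ± 5.97 in IR29. The IR29 change was -4.51 ± 0.44 on the log2 scale (SE, limma adjusted p = 2e-09), and the difference between the genotypes 3.76 ± 0.62 (limma adjusted p = 7.2e-05). IAA30 stood at 161 ± 121 in LTH and 10.7 ± 0.0866 in IR29 after recovery, from 490 (489.64) ± 125 and 283 ± 213, and was called lower in IR29 (limma adjusted p = 0.00035) and not in LTH (limma adjusted p = 0.35). Its difference between the genotypes, 2.51, was not called (limma adjusted p = 0.27).

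IAA8 fell in IR29 to 5.63 ± 4.48 after recovery from 53.8 ± 8.58 in the control, a log2 change of -3.54 ± 0.63 (limma adjusted p = 5.4e-05), with 23.5 ± 3.65 against 33.0 ± 4.55 in LTH. The difference between the genotypes was called here too, at 3.05 (limma adjusted p = 0.023). IAA14 rose in IR29 at 8 and 48 h, from 18.1 ± 19.3 to 155 ± 64.0 and 191 ± 126, by 3.64 and 3.8 on the log2 scale (limma adjusted p = 0.045 and 0.025). The 48 h call was lost without replicate 1 or 3 of the IR29 control or of the 48 h group, and the value was lowest, 2.98, without replicate 3 of the control. In LTH IAA14 averaged 43.4 ± 9.57 in the control, 109.6 ± 130.3 at 8 h and 89.7 ± 97.3 at 48 h. IAA16, without a call against a control, had group means of 1.58 to 5.23. From 48 h to recovery it was called higher in both genotypes, by 1.2 in LTH and 1.14 in IR29 (limma adjusted p = 0.039 and 0.047).

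Under chilling the other Aux/IAA genes were mostly not called. In LTH 5 of 23 were called higher and 3 lower at 1 or more times, and in IR29 11 were called higher and none lower (over all genes 18.3% and 28% in LTH, 16.9% and 29.7% in IR29). IR29 at 8 h had the largest number of higher calls, 9 of 23, where 10.6% of all genes were called higher. The count was 5 without replicate 3 of the IR29 control.

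At this time the 5 shoot meristem markers had a mean log2 change of 1.80 in IR29, with a summed intensity of 276 to 291 against 30.2 to 50.4 in the control and 32.5 to 192 in LTH at 8 h. Of the 5, only OSH71 was called (3.14 on the log2 scale, limma adjusted p = 0.02). Of the 20 markers of dividing cells 3 were called higher in IR29 at 8 h. Their sum was 1195 to 1935 against 507 to 1168 in the control, and their part in the Aux/IAA counts was not tested.

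**Figure D4:**
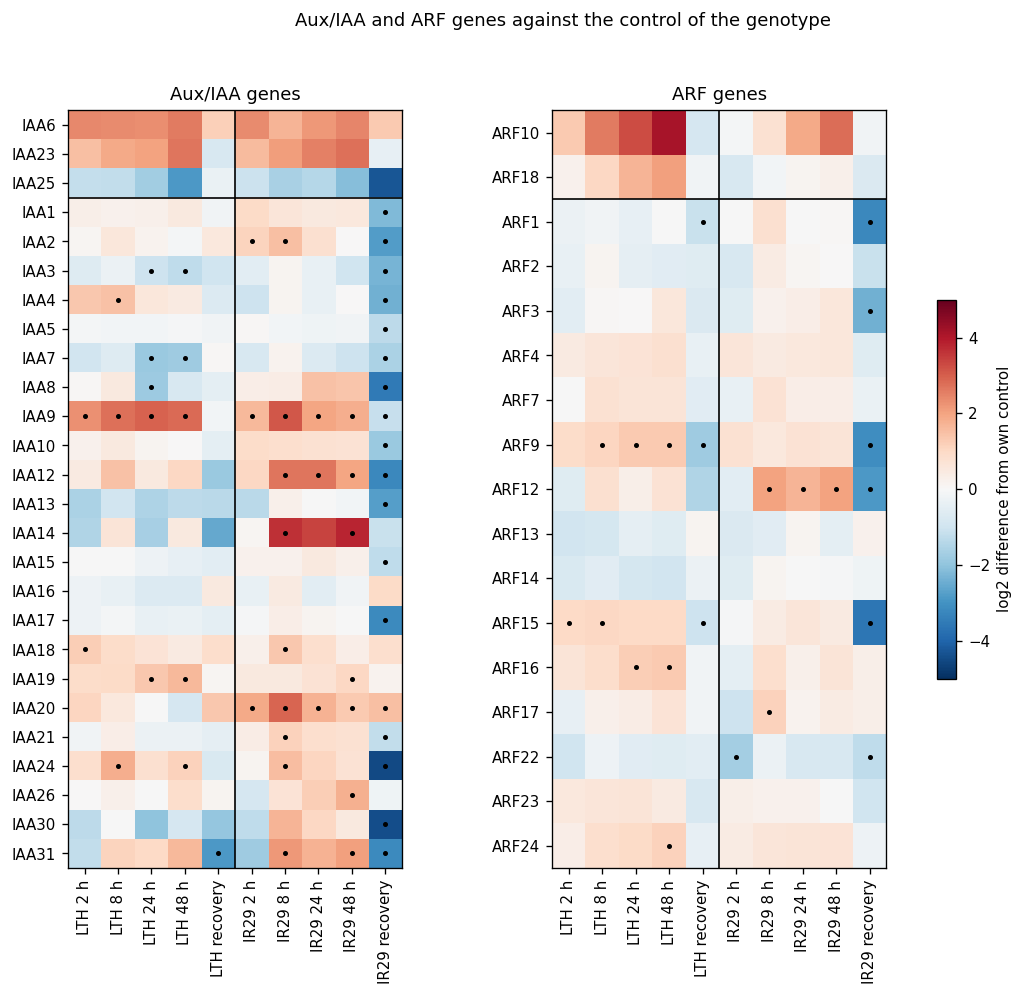
Log2 difference from the control of the genotype for Aux/IAA genes (left) and ARF genes (right), with the 5 members above the horizontal line and LTH left of the vertical line. Dots mark calls at an adjusted p below 0.05 and a log2 difference of at least 1, not drawn for the members, and 17 of the 23 other Aux/IAA genes have such a dot on a blue cell in IR29 recovery.

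Of the 15 other ARF genes none was called higher and 6 lower in IR29 after recovery, with a median of -0.98, and 3 were called lower in LTH, with a median of -0.56. ARF15 read 241 ± 46.3 in LTH and 35.7 ± 5.39 in IR29 after recovery, from 496 ± 69.7 and 439 ± 66.7. It fell by 1.05 ± 0.24 in LTH (limma adjusted p = 0.0075) and by 3.62 ± 0.24 in IR29 (limma adjusted p = 6.9e-13), and the difference of 2.57 was called (limma adjusted p = 2.2e-06). ARF1 read 15.1 ± 1.88 in IR29 after recovery against 142 ± 15.1 in the control, and ARF9 47.8 ± 7.89 against 414 ± 85.7. Both fell in LTH as well, by 1.11 and 1.79 on the log2 scale, and both had a called difference between the genotypes, 2.12 and 1.31 (limma adjusted p = 0.00057 and 0.00098).

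ARF12 rose in IR29 from 161 ± 88.8 to 598 ± 166 at 8 h and 601 ± 171 at 48 h and fell to 20.2 ± 5.44 after recovery, a change of -2.89 ± 0.52 against the control (limma adjusted p = 6.3e-05). In LTH it was not called against the control at any time. Its LTH means were 365.8 ± 61.1 in the control, 696 ± 388 at 8 h and 609.9 ± 167 at 48 h. No ARF12 difference between the genotypes was called (limma adjusted p = 0.49 at 8 h and 0.32 at 48 h). Under chilling 4 of the 15 ARF genes were called higher and none lower in LTH (18.3% and 28% of all genes), and 2 higher and 1 lower in IR29 (16.9% and 29.7%). None of the 15 was called for LTH minus IR29 at the 4 chilling times, where 2.34%, 4.46%, 9.13% and 12.9% of all genes were. ARF4 and ARF23, the brightest ARF genes without a call against a control, had log2 differences between -0.98 and 0.82. Both extremes missed only the fold minimum: ARF23 in IR29 recovery (limma adjusted p = 1e-06) and ARF4 in LTH at 48 h (limma adjusted p = 6.8e-07). From 48 h to recovery ARF4 was called lower in LTH and in IR29 (-1.17 in each), and ARF23 in LTH (-1.24).

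**Figure D5:**
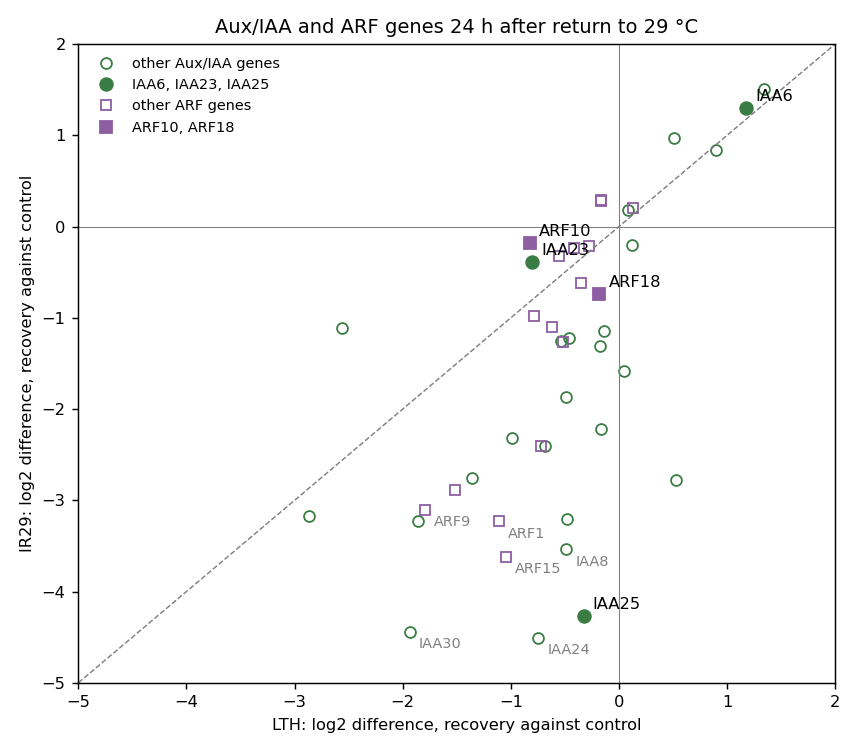
Log2 difference between recovery and control in LTH (x axis) and IR29 (y axis) for Aux/IAA (circles) and ARF genes (squares), 1 point per gene, the members filled and named, and a dashed line where both would be equal. IAA25 lies at -0.33 and -4.27 beside IAA24 at -0.75 and -4.51, while IAA6 lies above 1 on both axes.

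Markers of other states moved in the same recovery groups. Of the 20 markers of dividing cells 7 were called lower and 1 higher in IR29 after recovery and 4 lower in LTH, and their summed intensity was 426 to 472 in IR29 and 541 to 856 in LTH, from 507 to 1168 and 1490 (1489.7) to 1798. Of the 5 leaf markers 1, CAB2R, was called lower in IR29, and the 5 had a mean log2 change of -0.999 in IR29 and 0.07 in LTH. The 5 shoot meristem markers summed to 16.4 to 20.6 in IR29 and 12.97 to 181 in LTH after recovery, and none was called. Arrays within chilled LTH groups differed widely in these markers. The sum for dividing cells was 615 to 2651 at 8 h and 387 to 1812 at 24 h in LTH. The shoot meristem sum was 19.9 to 271 in LTH at 24 h. The part of these markers in the auxin genes' changes, and in their spread within a group, was not tested.

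GH3 enzymes, most of which join auxin to amino acids and so lower its free level, were called in 3 of 9 genes in LTH and 6 of 9 in IR29 under chilling (46.2% and 46.5% of all genes). GH3.8 rose at all 4 chilling times and after recovery in both genotypes, in LTH from 24.1 ± 3.27 to 312 ± 193 at 8 h and 100 (100.45) ± 15.6 after recovery, and in IR29 from 14.6 ± 4.29 to 111 ± 32.5 and 146 ± 29.5. Its recovery changes were 2.05 ± 0.57 (limma adjusted p = 0.037) and 3.34 ± 0.57 (limma adjusted p = 2.8e-05). It shares with IAA6 the higher level in both recovery groups.

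GH3.4 and GH3.1 rose in IR29 at 8 h, from 8.92 ± 6.77 to 171 ± 80.5 and from 9.82 ± 7.83 to 94.9 ± 15.5, by 4.64 and 3.55 on the log2 scale (limma adjusted p = 0.0014 and 0.011). Their LTH arrays at 8 h had SDs of 31.8 and 88.5 around means of 40.4 and 77.7, and neither difference between the genotypes was called. GH3.1 lost its call without replicate 3 of the IR29 control (3.11 on the log2 scale). GH3.2 rose at 2 h in both genotypes (1.63 ± 0.39 for LTH, 1.82 ± 0.39 for IR29, limma adjusted p = 0.0026 and 0.00068). GH3.5, which in rice joins jasmonate rather than auxin to isoleucine, was not called in any comparison with a control, and neither was GH3.9.

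The 1 SAUR gene matched, SAUR39, a negative regulator of auxin synthesis and transport in rice, fell early in both genotypes, at 2 h by 1.96 ± 0.54 for LTH and 1.69 ± 0.54 for IR29 (limma adjusted p = 0.0082 and 0.02). FIB, an aminotransferase of auxin synthesis, stood at 4.23 ± 0.396 in IR29 after recovery against 109 ± 4.69 in the control, and at 89.5 ± 24.6 against 143 ± 10.0 (10.047) in LTH. Its IR29 change was -4.69 ± 0.37 (limma adjusted p = 3.4e-11), and the difference between the genotypes, 3.98, was called (limma adjusted p = 2.9e-06). Before that, FIB in IR29 averaged 206 ± 100.3 at 24 h and 258 ± 155 at 48 h of chilling, and it was called higher at 48 h. YUCCA1, a monooxygenase of the same pathway, fell in LTH by 1.30 ± 0.41 at 24 h (limma adjusted p = 0.015), a call lost without replicate 2 of that group (-1.03). It was called lower in LTH at 48 h too, at a mean of 6.83 ± 1.27 against 14.8 ± 0.199 in the control. TPR2 and TPR3 of the TOPLESS family were called in no comparison.

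Among 5 genes of the PIN family of auxin carriers, PIN5A had the largest change. The controls averaged 510 (509.85) ± 134 for LTH and 163 ± 23.6 for IR29, higher in LTH by 1.62 ± 0.38 (limma adjusted p = 0.0033). In IR29 it fell to 7.09 ± 5.11 at 48 h and 3.41 ± 1.03 after recovery, by 4.75 and 5.62 on the log2 scale. In LTH it fell to 150 (150.21) ± 28.004 at 48 h, by 1.74 ± 0.38 (limma adjusted p = 0.00042), and stood at 271 ± 79.9 after recovery. The difference between the genotypes was called at 24 h, 48 h and in recovery, at 2.13, 3.01 and 4.70 (limma adjusted p = 0.011, 0.00027 and 2.6e-07). As with IAA25, recovery was the lowest of the IR29 groups and not of the LTH groups.

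PIN3A rose under chilling in both genotypes, from 38.1 ± 9.70 to 289 ± 81.5 at 8 h in LTH and from 27.5 ± 19.5 to 146 ± 75.7 at 48 h in IR29, by 2.91 and 2.50 on the log2 scale (limma adjusted p = 2.2e-06 and 1e-05). It stood at 19.4 ± 12.3 and 9.70 ± 1.72 after recovery, called lower in IR29 (limma adjusted p = 0.015). PIN5C in LTH at 8 h (1.64 ± 0.59, limma adjusted p = 0.047) and PIN2 in IR29 after recovery (1.24 ± 0.38, limma adjusted p = 0.014) were called at means under 20, and single arrays ended both calls: PIN5C lost it without any LTH control array or without replicate 3 at 8 h (1.07), and PIN2 without replicate 2 of the control (0.72) or replicate 3 of recovery (1.01).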

How the data were processed

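Leaf RNA of 36 samples was hybridized to the Affymetrix GeneChip Rice Genome Array. The authors scanned the arrays, produced CEL files with GCOS1.4 and normalized them with dChip, which gave the deposited table of intensities on a linear scale, with a value for each probe set and array. They carry no detection call, so background cannot be read from them, and the number of arrays limits the precision. A floor of 1 was applied before taking log2. limma 3.58.1 in R 4.3.3 fitted 1 model of the 12 group means with an intensity-trended eBayes step. The 18 comparisons are 10 with the control of the genotype, 1 between the controls, 5 differences between the responses (LTH minus IR29) and 2 of recovery with 48 h. Calls needed a Benjamini-Hochberg adjusted p below 0.05 over the 57258 probe sets and an absolute log2 change of at least 1. The procedure was tested on simulated data.

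Genes came from the platform annotation, which gave 22436 probe sets 1 gene, 95 several and 34727 none, with names from RefSeq (ASM3414082v1). A gene is given at its brightest probe set. Named genes are the members, up to 4 called genes of largest change and 2 bright uncalled ones per list, and 3 likeness genes per member. IAA2, IAA20, IAA31, CAB2R, OSH71 and the other markers are named in addition, after their values were seen. Receptor genes and root markers matched no probe set and were not analysed here. The members and lists were chosen with earlier results of these data known. Alternatives were another floor, quantile normalization, median centring, no dim probe sets, the replicate block, separate fits, no trend, no fold minimum, the methods' t-test, any probe set of a gene, and each array left out.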

Additional observations from a re-analysis of the deposited data

Results flagged for a closer look

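The response to chilling or recovery differed between the genotypes, as LTH minus IR29 on the log2 scale with a limma adjusted p over all probe sets, at 9 of the auxin genes named here. These genes were named for their large called changes or after their values were seen. Of all 57 auxin genes in the lists, 15 were called at 1 or more of the 5 times, against 27.2% of all genes. In recovery the difference was 2.57 for ARF15 (limma adjusted p = 2.2e-06), 2.12 for ARF1 (limma adjusted p = 0.00057), 1.31 for ARF9 (limma adjusted p = 0.00098), 3.76 for IAA24 (limma adjusted p = 7.2e-05), 3.05 for IAA8 (limma adjusted p = 0.023), 3.31 for IAA2 (limma adjusted p = 4e-05), 3.98 for FIB (limma adjusted p = 2.9e-06) and 4.70 for PIN5A (limma adjusted p = 2.6e-07). Under chilling it was -3.28 for IAA8 at 24 h (limma adjusted p = 0.02). There IAA8 had a mean of 17.8 ± 23.2 in LTH, an SD larger than the mean, and 154 ± 57.8 in IR29. For PIN5A the difference was 2.13 at 24 h (limma adjusted p = 0.011) and 3.01 at 48 h (limma adjusted p = 0.00027). For IAA20 it was -2.37 at 8 h (limma adjusted p = 0.018) and -2.16 at 48 h (limma adjusted p = 0.014), with IAA20 called higher at both times in IR29 and at neither in LTH. These IAA20 values rest on low signal. Its mean was 9.36 ± 5.23 in IR29 controls (SD), under the lowest array median of 9.81. At 48 h its means were 14.1 in LTH and 21.4 in IR29.

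At 2 members all arrays of the genotypes moved in opposite directions, and these differences were not tested. ARF18 was higher than the mean of its controls in 3 of 3 LTH arrays and lower in 3 of 3 IR29 arrays at 2 h (LTH minus IR29 of 0.99) and at 8 h (1.17). At each time the change in 1 genotype was smaller than its SE, 0.20 ± 0.22 in LTH at 2 h and -0.15 ± 0.22 in IR29 at 8 h. From 48 h of chilling to recovery IAA25 was higher in 3 of 3 LTH arrays and lower in 3 of 3 IR29 arrays (4.69). With 3 arrays per group, no array was tested as an outlier.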

How the results depend on the processing

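The 11 counts of auxin genes stayed within 1.5 times under the alternatives that kept all arrays, with these exceptions. Of 57 genes, the count between the controls of the genotypes, 2, became 4 with only the groups compared, 4 without the fold minimum, 4 by the methods' t-test and 1 by that test after adjustment. The LTH recovery count, 5, became 9 by the methods' t-test without adjustment and 0 after it, against 5 by limma. After adjustment the IR29 chilling count, 25, became 12, and the 9 Aux/IAA genes higher in IR29 at 8 h became 5. The methods' t-test was not run for differences between responses. Of the 19 named list genes called against a control, each at its largest change, some lost that call. It was 1 gene without the intensity trend, 2 with only the groups compared and 1 under quantile normalization. Replicate numbers did not pair the arrays: deviations of same-numbered arrays correlated at a mean r of 0.0179, -0.00928 and 0.00385, and the replicate block gave 28 called genes in IR29 recovery and 5 in LTH recovery and moved no count by over 1.5 times. IAA23 in IR29 recovery stood at -0.19 under quantile normalization and ARF18 between the controls at -0.34 under median centring.

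With single arrays left out the counts ranged from 16 to 29 for LTH chilling, 16 to 25 for IR29 chilling, 1 to 6 for LTH recovery, 24 to 29 for IR29 recovery, 1 to 2 between controls, 14 to 25 for the differences between responses (15 with all arrays, 25 without replicate 2 of LTH 24 h), 16 to 21 for LTH and 27 to 29 for IR29 rewarming, 5 to 9 and 14 to 16 for Aux/IAA genes higher in IR29 at 8 h and lower in IR29 recovery, and 6 to 9 for Aux/IAA differences in recovery. ARF10 in IR29 recovery lay between -0.35 and 0.11, positive without replicate 2 of the IR29 control. Signal near the floor limits IAA16, PIN2, PIN5C and the third IAA23 probe set. Low signal also limits the size of large changes in IR29 recovery. There PIN5A, FIB and IAA8 had means of 3.41, 4.23 and 5.63, under the lowest array median of 9.81. IAA24 and IAA30, at 11.04 and 10.7, were close to the array medians. YUCCA1 had group means of 6.25 to 14.8. In IR29 controls IAA20 and GH3.4, at means of 9.36 and 8.92, lay under the lowest array median too, and GH3.1, at 9.82, was next to it. Low signal thus also limits the size of the IR29 changes of IAA20, GH3.4 and GH3.1.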
